A study of Rattus norvegicus with 18 samples.

Results

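Solute carriers are the membrane proteins that move sugars, amino acids, ions, metals, vitamins and metabolites across the plasma membrane and the membranes of organelles. The 118 solute carrier genes described here were all those measured by a probe set with a single gene symbol that begins with Slc and a family number. Slc4a1 and Slc2a4 were left out of the set and counted among markers of red cells and fat. A gene read by more than 1 probe set was represented by the one of highest mean log2 signal. The 118 genes were drawn from 4736 genes on the array and were read by 176 of its 8740 probe sets. They belong to 37 families, of which 27 were represented by 2 or more genes.

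The rats were female Sprague-Dawley animals of 3 ages at surgery: young (6 weeks), adult (26 weeks) and older (52 weeks). The femur was left without a fracture, in sham controls taken at time 0, or was given a closed mid-shaft fracture over a steel intramedullary rod and taken after 3 days or 1, 2, 4 or 6 weeks. RNA was taken from the whole segment around the fracture, marrow and cortical bone as well as callus. Each of the 18 arrays stood for 1 age at 1 time and read a pool of RNA from 2 rats, so 36 rats were used. The 3 ages therefore stood in as replicates of a time, and the 6 times as replicates of an age. Where 3 signals are listed below, they are those of young, adult and older rats in that order.

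Carriers work without burning ATP themselves. They let a solute run down its gradient, couple it to sodium or protons, or exchange it for another solute. Bone makes wide use of them: osteoclasts use a chloride-bicarbonate exchanger to stay neutral while they pump acid, chondrocytes import sulfate and glucose for matrix, and cells that secrete collagen need proline and a supply of ATP in the endoplasmic reticulum. Red cell precursors depend on iron and glycine carriers, and muscle on adenine nucleotide, fatty acid and lactate carriers.

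Each signal is an intensity on a scale where every array has the same trimmed mean of 500, and it is relative to the rest of that array. Of 18 arrays, 12.2% to 20.1% of probe sets lay below a signal of 20, the floor used before taking log2. Markers of several cell types moved with fracture. All 5 measured markers of red cell precursors fell at 3 days, and their summed signal was 41789 to 74614 in intact femora and 4760 to 10824 at 3 days. All 8 skeletal muscle markers fell at 3 days (sums of 90745 to 105640 and 16750 to 29873), and 0 of them were called at 2 weeks and later. All 3 neutrophil markers fell at 3 days, with sums of 35689 to 49934 and 877 to 12838. All 6 cartilage markers rose at 1 week (sums of 223 to 2470 and 12721 to 17832), and 4 of 5 osteoclast markers rose at 2 weeks (3134 to 9434 and 35927 to 43126). No marker of these lists was below the floor on all arrays. RNA quality was read from the 3' to 5' ratio of actin signals. It ran from 2.1 to 2.61 without fracture and from 1.48 to 1.9 after it, except at 6 weeks in young (2.72) and adult rats (2.27). The part of these shifts in the carrier results was not tested. In such a mixed tissue, fewer cells of a type and less RNA per cell cannot be told apart.

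The carriers were of ordinary brightness for this array. The median over the 118 carriers of their mean signal was 184.6, against 217.4 over all genes. A mean signal of 200 or more was reached by 58 carriers (49.2%, against 52.5% of all genes). The mean signal was under 20 in 13 carriers, and 5 of these were below 20 on all arrays. Those 5 were Slc1a6, Slc2a2, Slc12a5, Slc13a3 and Slc18a1, which are best known from brain, liver, kidney or chromaffin cells. Signals of different probe sets do not measure relative amounts of mRNA, so no order of abundance among carriers is given.

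The first comparison asked which carriers changed with fracture. A change was called by limma at an adjusted p below 0.05 over all 8740 probe sets. At 3 days 52 of 118 carriers were called (44.1%), 20 higher and 32 lower than in intact femora. Among all 4736 genes 41.8% were called, 20% higher and 21.9% lower. At 1 week 50 carriers were called (42.4%), 23 higher and 27 lower, against 38% of all genes (18.4% higher and 19.6% lower). At 2 weeks 42 were called (35.6%), 17 higher and 25 lower, against 34.5% of all genes (16.2% higher and 18.3% lower). At 4 weeks 29 were called (24.6%), 15 higher and 14 lower, against 23.4% of all genes (12.3% higher and 11% lower). At 6 weeks 24 were called (20.3%), 12 higher and 12 lower, against 17.5% of all genes (8.74% higher and 8.78% lower). The share of carriers called lay near the share of all genes at each time, and the counts of carriers are read against it. The median log2 change of the carriers was -0.20 at 3 days, -0.17 at 1 week, -0.19 at 2 weeks, -0.09 at 4 weeks and -0.09 at 6 weeks, while over all genes it was -0.10, -0.07, -0.09, -0.05 and -0.04. All 5 comparisons share the same 3 intact arrays.

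**Figure D1:**
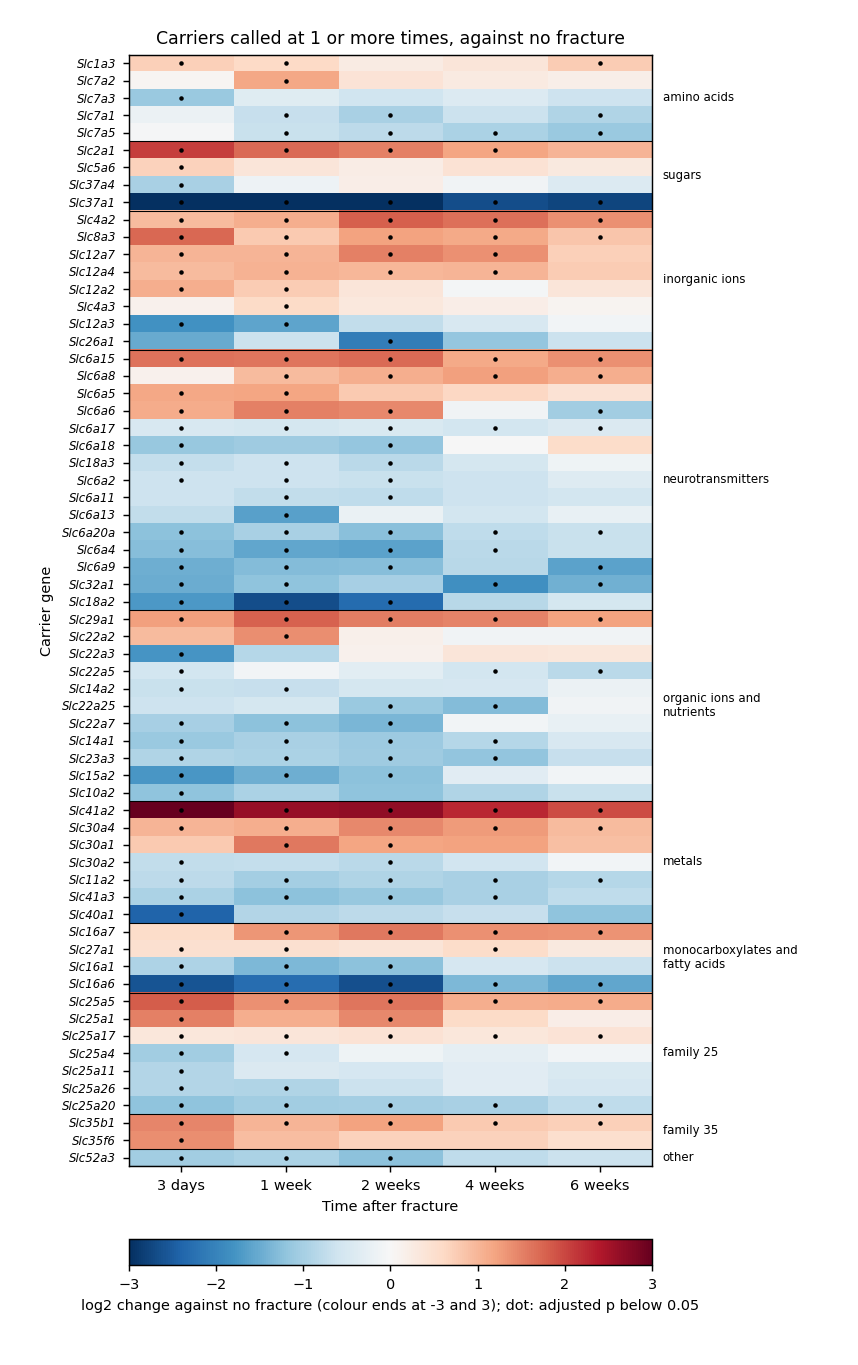
Each row is 1 of the 64 carriers called at 1 or more times (vertical axis, grouped by substrate or family) and each column a time after fracture (horizontal axis). Colour gives the log2 change against no fracture from limma, 3 arrays per time, and a dot marks an adjusted p below 0.05. Most groups hold both directions, while both members of family 35 drawn are higher.

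Over the 5 times, 64 carriers were called at 1 or more times (54.2%, against 53.5% of all genes) and 54 at none. Of the 64, 26 were called higher at some time (22% of carriers, against 25% of genes) and 39 lower (33.1%, against 29% of genes), and 1, the taurine carrier Slc6a6, was called in both directions. By limma's F test over the 6 times 47 carriers had an adjusted p below 0.05 (39.8%, against 39.4% of genes). By the probe set that represents each gene, 15 carriers were called at all 5 times. Of these, 9 were higher (7.63% of carriers, against 6.29% of genes) and 6 lower (5.08%, against 4.96%). Dimmer probe sets of some other carriers were also called at all 5 times, such as those of Slc2a1 (higher), Slc16a1 and Slc25a11 (both lower). More calls were lost without the adult or the older arrays than without the young ones. Without the adult arrays limma called 18, 13, 14, 0 and 0 carriers at the 5 times, and without the older arrays 20, 14, 12, 2 and 0, while without the young arrays it called 36, 39, 40, 32 and 27. With the actin ratio as a covariate the counts were 13, 12, 10, 1 and 22. The shares of all genes called under these settings are not given here, so the losses cannot be read as a trait of the carriers. Of 60 changes of named carriers called at these times, 40 lost the call without the adult arrays, 42 without the older arrays, 6 without the young arrays and 32 with the actin covariate. The 11 that were called under all 4 of these settings were those of Slc16a6 at 3 days, 1 week and 2 weeks, Slc25a5 at 3 days and 2 weeks, Slc6a15 at 1 and 2 weeks, Slc41a2, Slc8a3 and Slc15a2 at 3 days and Slc6a4 at 1 week.

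The 9 carriers above intact bone at all 5 times were led by Slc41a2, a magnesium transporter. Its signals were 160.5, 36.3 and 94.9 in intact femora and 798, 763 and 875 at 3 days, a 9.88-fold rise (adjusted p = 0.000229). At 6 weeks they were 209, 402 and 389, still 3.9-fold higher. Every one of the 15 fractured arrays, at 209 to 875, lay above all intact arrays. Slc29a1, the equilibrative nucleoside transporter that takes up adenosine, was 818, 492 and 524 in intact femora and 1857, 1995 and 2255 at 1 week (3.41-fold, adjusted p = 0.000645). Its fractured arrays ran from 1047 to 2255 and did not overlap the intact ones. Slc4a2, the anion exchanger that trades chloride for bicarbonate in osteoclasts and many epithelia, went from 322, 251 and 289 to 1169, 910.2 and 929 at 2 weeks (3.48-fold, adjusted p = 0.00152). The young signal led at 3 days and 1 week (866 and 1011), when the adult and older signals were between 422 and 501.7. At 4 and 6 weeks the young signal was the lowest of the 3 ages. A second, slightly dimmer probe set of Slc4a2 was also higher at all 5 times, by 3.59 on the log2 scale at 2 weeks (limma, adjusted p = 0.00089). The 2-week call of the brighter probe set was lost with the actin covariate (log2 change 1.15, adjusted p = 0.12). It was also lost without the adult or older arrays, as was that of Slc41a2 at 6 weeks. The 1-week call of Slc29a1 was lost without the adult arrays (adjusted p = 0.056).

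Slc8a3, a sodium-calcium exchanger, peaked at 3 days, with signals of 251, 187 and 148 in intact femora and 546, 715 and 639 then (3.3-fold, adjusted p = 0.000117). It was 1.73-fold higher at 1 week and 1.78-fold higher at 6 weeks. Slc6a15, a sodium-coupled carrier of branched-chain amino acids and proline, rose 3.12-fold at 3 days and 3.27-fold at 2 weeks, from 72.7, 66.6 and 41.2 to 229.7, 207 and 147 (adjusted p = 0.000363). With the actin covariate the 3-day call was lost (log2 change 0.86, adjusted p = 0.054). It was a dim gene whose lowest fractured array, at 111, was above the highest intact one. Slc35b1, which exchanges ATP for ADP across the membrane of the endoplasmic reticulum, rose 2.75-fold at 3 days, from 1372, 874 and 1129 to 2831, 3231 and 3083 (adjusted p = 0.000165). By 6 weeks its young signal was 1376, about the young intact level, while the adult and older signals were 2135 and 2016.

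Slc25a5, the adenine nucleotide translocase of growing cells, was 1492, 1486 and 1424 in intact femora and 4946, 5833 and 4775 at 3 days (3.52-fold, adjusted p = 4.52e-05). The intact signals differed little among the ages, and the 15 fractured arrays ran from 2396 to 5833. Slc30a4, a zinc transporter that loads zinc into vesicles, rose 2.72-fold at 2 weeks, from 220.5, 138 and 204 to 557, 452 and 492 (adjusted p = 0.000928). Slc25a17, a peroxisomal carrier of cofactors, rose by little at any time (1.26-fold at 3 days to 1.36-fold at 2 weeks), with intact signals of 600.5, 578 and 668 and a range of 704 to 989.6 after fracture. The groups of all 9 genes did not overlap at any of the 5 times. The 9 were picked by their calls against the same 3 intact arrays, so this adds no separate support. The share of all genes without overlap was not counted.

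Of the 6 carriers below intact bone at all 5 times, Slc37a1 fell the most. It encodes an exchanger of glucose 6-phosphate for phosphate in the endoplasmic reticulum. Its signals were 264, 293 and 299 in intact femora, 25, 33.7 and 15.5 at 3 days and 19.8, 18.8 and 19.9 at 1 week. All 3 arrays at 1 week were below the floor of 20, so the fall was at least 14.2-fold (adjusted p = 0.00172). The call was lost with the actin covariate (log2 change -2.26, adjusted p = 0.12) and without the adult (adjusted p = 0.058) or the older arrays (adjusted p = 0.055). At 6 weeks the signals were 184, 13.9 and 18.5: the young array had come back part of the way and the other two were below the floor. Slc16a6, a member of the monocarboxylate transporter family, had the smallest p of all carriers in limma's F test over times. It went from 662, 426 and 574 to 153, 67.1 and 72.8 at 3 days (6-fold lower, adjusted p = 8.03e-06) and 141, 58.9 and 80.6 at 2 weeks (6.23-fold lower, adjusted p = 2.26e-05). It had partly returned at 6 weeks, to 330.3, 138 and 142 (2.93-fold lower, adjusted p = 0.000859).

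Slc25a20, the carnitine-acylcarnitine carrier that brings fatty acids into mitochondria, fell 2.32-fold at 3 days, from 651, 538 and 615 to 317, 176 and 311 (adjusted p = 0.000341). Its fractured arrays, at 176 to 443, were all below the intact ones. Slc11a2, the iron importer DMT1, fell 2.04-fold at 1 week, from 698, 1045 and 969.9 to 419, 441 and 450.3 (adjusted p = 0.00271). Slc6a20a, a proline and imino acid carrier, fell 2.4-fold at 2 weeks, from 213, 319 and 276 to 105, 121 and 107 (adjusted p = 0.000495). Slc6a17, a synaptic vesicle carrier of neutral amino acids, was at 24.7, 31.9 and 31.7 in intact femora and at 16.1 to 24.5 after fracture, so its calls rest on signals at or near the floor.

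**Figure D2:**
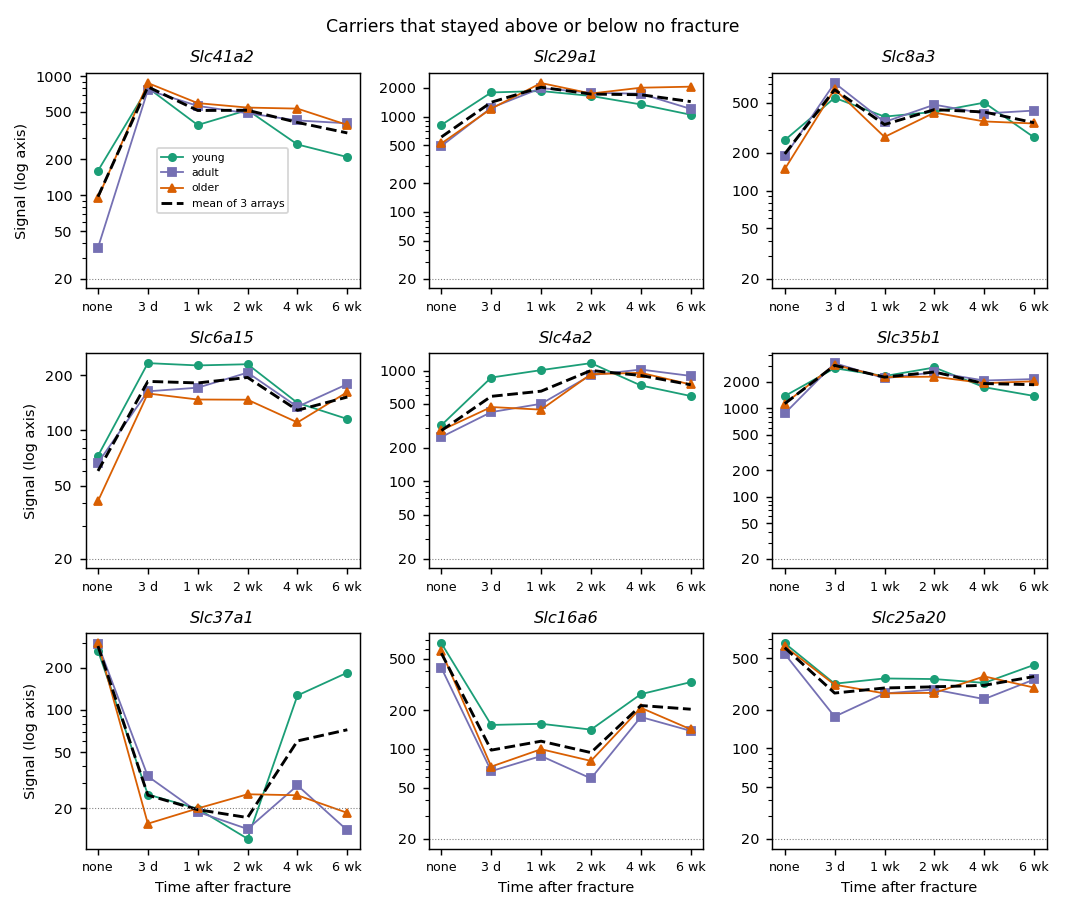
Signal (vertical axis, log scale) of 9 of the 15 carriers called at all 5 times against no fracture and 5 times after fracture (horizontal axis). Each line with symbols is 1 age (1 array per point), the dashed line the mean of the 3 arrays, and the dotted line the floor of 20. The upper 6 genes stay above and the lower 3 below their intact signals, and in Slc37a1 the young line alone returns to 127 and 184.5 at 4 and 6 weeks.

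The sequence upstream of the start was looked up for the carriers called at all 5 times, to show the region from which those that stayed higher and those that stayed lower are transcribed. RefSeq promoters of the rat assembly GRCr8 were at hand for 101 of the 118 carriers and for 12 of the 15 carriers called at all 5 times. The 4 shown are the largest mean rises and falls among those 12. Each is the 250 bases before the start, 5' to 3' on the gene's own strand, and capitals mark a match on either strand. The motifs searched for were the GC box that Sp1 proteins bind, spelled GGGCGG, and the binding site of NF-Y, spelled CCAAT. The core promoter motif TATAAA was searched as well, and so was the E-box of bHLH proteins, spelled CACGTG. The others were the AP-1 site, spelled TGANTCA, and the motif of erythroid factors, spelled AGATAA. The places are chr7:22271063-22271312 for Slc41a2, chr9:22896849-22897098 for Slc29a1, chr20:9379932-9380181 for Slc37a1 and chr8:118243323-118243572 for Slc25a20, all on the plus strand.
Slc41a2: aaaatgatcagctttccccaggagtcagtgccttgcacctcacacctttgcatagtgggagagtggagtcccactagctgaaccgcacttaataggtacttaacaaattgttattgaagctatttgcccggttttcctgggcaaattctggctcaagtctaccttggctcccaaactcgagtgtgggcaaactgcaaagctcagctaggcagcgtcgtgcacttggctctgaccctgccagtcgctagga
Slc29a1: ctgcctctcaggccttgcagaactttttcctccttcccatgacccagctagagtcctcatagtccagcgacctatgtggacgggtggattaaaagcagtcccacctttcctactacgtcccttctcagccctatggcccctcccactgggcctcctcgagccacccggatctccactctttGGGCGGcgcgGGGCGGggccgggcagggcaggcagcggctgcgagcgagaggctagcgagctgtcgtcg
Slc37a1: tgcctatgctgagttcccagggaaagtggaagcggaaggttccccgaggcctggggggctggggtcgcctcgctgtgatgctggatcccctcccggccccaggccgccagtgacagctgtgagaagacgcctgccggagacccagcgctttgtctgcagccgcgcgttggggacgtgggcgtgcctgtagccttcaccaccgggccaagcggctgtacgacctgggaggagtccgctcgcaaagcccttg
Slc25a20: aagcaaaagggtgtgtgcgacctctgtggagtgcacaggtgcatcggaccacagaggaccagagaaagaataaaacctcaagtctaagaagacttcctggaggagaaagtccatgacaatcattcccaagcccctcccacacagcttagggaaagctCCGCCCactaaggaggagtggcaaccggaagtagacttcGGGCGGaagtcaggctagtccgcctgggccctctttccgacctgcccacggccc

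Slc29a1 and Slc25a20 each hold 2 GC boxes, although the first was higher and the second lower after fracture. Slc41a2 and Slc37a1 hold none of the 6 motifs in this window. Over the 12 promoters, GGGCGG was found in 5 of 7 carriers that stayed higher and 2 of 5 that stayed lower. It is a common motif, in 48.5% of 101 carrier promoters and 32.4% of all 27457 promoters of this length, and carrier promoters had a median GC content of 59.2%, against 52.0% over all. CCAAT was in 35.6% of carrier promoters (34.3% of all), TATAAA in 8.9% (13.1%), CACGTG in 10.9% (5.8%), TGANTCA in 10.9% (6.4%) and AGATAA in 5.0% (10% of all). These matches are a description of letters only.

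By family number, the largest families were 6 (14 genes), 25 (12 genes), 22 (8 genes), 12 and 16 (6 genes each). Of the 27 families with 2 or more genes, families 3, 9, 13, 17 and 28, which hold amino acid heavy chains, sodium-proton exchangers, dicarboxylate and sulfate carriers, vesicular glutamate and phosphate carriers and nucleoside carriers, had no member called by limma at any of the 5 times. Families 1, 2, 4, 5, 8, 27, 29 and 35 had calls of higher signal and 0 of lower. Families 10, 14, 15, 18, 26 and 37 had calls of lower signal and 0 of higher. The other 8 held both. These counts take the 1 probe set that represents each gene, and dimmer probe sets of some genes, such as Slc37a4 and Slc1a3, were called the other way. Every measured member of families 7 (4 genes), 14 (2), 30 (3), 37 (2) and 41 (2) was called at some time, as were 53.5% of all genes. Families this small can be called in full at that share, and no test was made of them.

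By substrate, the counts below stand against 53.5% of all genes called at some time, 25% higher and 29% lower. The groups are small, and no test was made of them. Among carriers of metals 7 of 7 were called at some time, 3 higher and 4 lower. Slc41a2 and Slc30a4, described above, rose. Slc30a1, the zinc exporter of the plasma membrane, also rose at least 2.99-fold at 1 week, from 39.6, 12.1 and 34.5 to 109, 90.8 and 73.9 (adjusted p = 0.00972). That call was lost with the actin covariate and without the adult or older arrays. The fall was sharpest in Slc40a1, ferroportin, the iron exporter of macrophages and red cell precursors. Its signals were 1241, 1175 and 1287 in intact femora and 514, 115 and 210.0 at 3 days (5.33-fold lower, adjusted p = 0.00267), and no later time was called. Without the older arrays the call was lost (adjusted p = 0.059). The iron importer Slc11a2 fell at all 5 times by its brightest probe set, though not by its dimmer ones. Slc41a3, a magnesium exchanger of mitochondria, fell 2.36-fold at 1 week (adjusted p = 0.00713, mean signals of 656 ± 167 and 271 ± 9.17, SD, n = 3), in contrast to Slc41a2 of the same family. Slc30a2, a vesicular zinc transporter, fell by 0.74 at 3 days and by 0.81 at 2 weeks on the log2 scale. Its adult intact signal, 228, stood above the young and older ones (109 and 111). The 5 red cell markers fell beside the iron carriers (sums above), and their part was not tested.

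Of 19 carriers of sodium, chloride, potassium, calcium, sulfate and bicarbonate, 6 rose and 2 fell at some time. Beside Slc4a2 and Slc8a3, 3 chloride carriers of family 12 rose. Slc12a2, the sodium-potassium-chloride cotransporter NKCC1, was 369.6, 344 and 452 in intact femora and 702, 942 and 848 at 3 days (2.14-fold, adjusted p = 0.000117), and its groups did not overlap. At 4 weeks it was 272, 391 and 467, with the young array below and the older array above the 3 intact signals. The potassium-chloride cotransporters Slc12a4 and Slc12a7 stayed higher through 4 weeks, at 2.06-fold and 2.03-fold at 1 week and 2.03-fold and 2.56-fold at 4 weeks. Slc12a3, the thiazide-sensitive carrier of the kidney, went the other way, from 61.3, 93.6 and 93.5 to 26, 23.9 and 19 at 3 days (at least 3.51-fold lower, adjusted p = 0.00231). Slc4a3, another anion exchanger, rose 1.5-fold at 1 week alone (adjusted p = 0.00423). The sulfate carrier Slc26a1 fell at 2 weeks, from 128, 162 and 143 to 81.3, 24.2 and 17.9, a fall of at least 4.22-fold (adjusted p = 0.0201). The calls of Slc12a3 and Slc26a1, and that of Slc12a7 at 4 weeks, were lost with the actin covariate and without the adult or older arrays. Slc26a2, the sulfate carrier needed for cartilage proteoglycans, was not called at any time (log2 change 0.08 at 1 week and 0.32 at 6 weeks), while cartilage markers rose beside it. Slc4a7 (sodium bicarbonate), Slc8a1 (sodium-calcium) and Slc9a2 (sodium-proton), were not called.

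Among 11 sugar and vitamin carriers of families 2, 5 and 37, 2 rose and 2 fell. Slc2a1, the glucose transporter GLUT1, was 236, 214 and 278 in intact femora and 1304, 949 and 855 at 3 days, a 4.23-fold rise (adjusted p = 0.000695). It then came down, to 668, 725 and 666 at 2 weeks (2.84-fold, adjusted p = 0.00623), and its groups overlapped intact bone at 6 weeks only. A second, dimmer probe set of Slc2a1 was also higher at each time. With the actin covariate the 3-day call of the brighter one was lost (log2 change 1.35, adjusted p = 0.12). Slc5a6, the sodium-dependent multivitamin carrier, rose 1.62-fold at 3 days (adjusted p = 0.00983). Slc37a4, the glucose 6-phosphate carrier of the endoplasmic reticulum, fell 1.97-fold at 3 days by its brightest probe set (adjusted p = 0.0187). Its dimmer probe set was not called then (log2 change -0.28, adjusted p = 0.44). At 2 weeks that probe set was called higher (log2 change 0.85, adjusted p = 0.028). The neuronal glucose carrier Slc2a3 and the intestinal one Slc5a1 were not called by their brightest probe sets, at -0.20 and 0.34 on the log2 scale at 3 days.

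Of 10 amino acid carriers, 2 rose and 3 fell at some time. Slc7a5, the light chain of the large neutral amino acid transporter LAT1, was 1133, 1376 and 1365 in intact femora and 1126, 1294 and 1331 at 3 days, when its change was not called. It was lower from 1 week on and reached 716, 501 and 581 at 6 weeks (2.17-fold lower, adjusted p = 0.00489), with no overlap. The 6-week call was lost without the adult or older arrays. Its heavy chain partner Slc3a2 was not called, with log2 changes of 0.02 at 3 days and -0.48 at 6 weeks. Slc7a1, the arginine and lysine carrier CAT1, fell 1.96-fold at 2 weeks (adjusted p = 0.00885), and Slc7a3 of the same family fell 2.16-fold at 3 days (adjusted p = 0.0155). Slc7a2, the inducible arginine carrier CAT2, rose at 1 week from signals near the floor (22, 23.6 and 17.6) to 71.9, 41.5 and 38.3 (adjusted p = 0.0134). Slc1a3, a glutamate carrier, rose 1.64-fold at 3 days by its brightest probe set (adjusted p = 0.00286), while its dimmest, with a mean signal of 17.7, was called lower by 1.01 on the log2 scale.

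Family 6, the sodium- and chloride-coupled carriers of neurotransmitters, creatine, taurine and amino acids, was the largest, with 14 genes. Of these 12 were called at some time, 4 higher and 9 lower. With the vesicular carriers of families 17, 18 and 32, 15 of 20 genes were called, 4 higher and 12 lower, against 53.5% of all genes called, 25% higher and 29% lower. The summed neuron markers were at 422 to 810 over all arrays, with 1 of 5 called lower at 3 days and 0 at other times. Of 4 Schwann cell markers, 2 were called lower at 3 days and 3 at 2 weeks, and 1 was called higher at each time, with sums of 1910 to 2302 in intact femora, 2042 to 2503 at 3 days and 1947 to 2206 at 2 weeks. The part of nerve cells was not tested. Slc18a2, which loads serotonin, histamine and other monoamines into vesicles of nerve endings, platelets and mast cells, had intact signals of 191, 216 and 185 and 24.7, 54.3 and 22 at 1 week (6.37-fold lower, adjusted p = 0.00163). Slc6a4, the serotonin transporter of nerve endings and platelets, fell 3.06-fold at 2 weeks, from 588, 1033 and 619 to 327, 182 and 222 (adjusted p = 0.00113). Neither gene's groups overlapped at 3 days to 4 weeks, though both calls were lost without the older arrays (adjusted p = 0.073 and 0.053) and that of Slc18a2 with the actin covariate. Slc6a9, the glycine carrier GLYT1 of glia and red cell precursors, fell 2.76-fold at 3 days, from 589, 1051 and 723 to 309, 279.8 and 245 (adjusted p = 0.0223). Red cell markers fell at the same time, and their part was not tested.

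Slc32a1, the vesicular carrier of GABA and glycine, fell 3.56-fold at 4 weeks (adjusted p = 0.0119), with signals of 271, 238 and 184 and 79.1, 47.1 and 70.7. The call was lost without the young or adult arrays and with the actin covariate. Its dimmer probe set was called higher at 3 days by 1.08 on the log2 scale, so the direction of the gene there depends on the probe set. Slc6a2 (noradrenaline), Slc6a11 and Slc6a13 (GABA), Slc6a18 (a kidney amino acid carrier) and Slc18a3 (acetylcholine) fell at 1 to 3 times. Slc6a13 and Slc6a18 were dim, and Slc6a13 fell at 1 week alone (at least 3.08-fold, with 2 of 3 arrays below the floor, adjusted p = 0.0171). That call was lost without any 1 of the 3 ages and with the actin covariate (log2 change -0.39, adjusted p = 0.67). Among the 4 that rose, Slc6a8, the creatine carrier, was 541, 426 and 570.0 in intact femora, was not called at 3 days, and rose to 1026, 1028 and 1603 at 4 weeks (2.34-fold, adjusted p = 0.0213). Slc6a15 carries amino acids and Slc6a6 taurine. Slc6a5, the neuronal glycine carrier GLYT2, was dim and rose 2.28-fold at 1 week (adjusted p = 0.0195).

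The taurine carrier Slc6a6 turned from higher to lower. Its signals were 233, 134 and 127 in intact femora, 412, 351 and 275 at 3 days, 415, 434 and 502 at 1 week and 486, 372 and 448 at 2 weeks. They dropped to 109, 159 and 188 at 4 weeks and 61.9, 69 and 104 at 6 weeks. It was 2.83-fold higher at 1 week (adjusted p = 0.00254) and 2.08-fold lower at 6 weeks (adjusted p = 0.0326), without overlap at either time. Both calls were lost without the adult or older arrays, the first with the actin covariate and the second without the young arrays as well. At each age it was above its own intact signal through 2 weeks and below it at 6 weeks.

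Family 25, named for the mitochondrial carriers, had 3 of 12 members higher and 4 lower, and 1 of the 3 was the peroxisomal Slc25a17. The adenine nucleotide translocases moved apart. While Slc25a5 rose (above), Slc25a4, the form of heart and skeletal muscle, was 8788, 9835 and 11822 in intact femora and 4614, 5479 and 4623 at 3 days (2.06-fold lower, adjusted p = 0.000672). At 1 week it was 8318, 6951 and 6078 (1.43-fold lower, adjusted p = 0.0352), and from 2 weeks on its groups overlapped those of intact bone. The 8 muscle markers fell at 3 days and 3 of them at 1 week, beside this course. Slc25a1, the citrate exporter that feeds lipid synthesis, rose 2.84-fold at 3 days, from 669, 438 and 427 to 1277, 1729 and 1301 (adjusted p = 0.0115), and 2.74-fold at 2 weeks. At 3 days the call was lost with the actin covariate (log2 change 0.86, adjusted p = 0.43) and without the adult (adjusted p = 0.2) or the older arrays (adjusted p = 0.09). Slc25a11, the oxoglutarate-malate carrier, fell 1.83-fold at 3 days (adjusted p = 0.0126), and Slc25a26, the S-adenosylmethionine carrier, fell 1.85-fold then (adjusted p = 0.032). The phosphate carrier Slc25a3, with a mean signal of 5422, was not called at any time (log2 change -0.18 at 1 week, its largest departure).

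Carriers of monocarboxylates and fatty acids had 2 of 8 members higher and 2 lower. Slc16a1, the lactate and pyruvate carrier MCT1 of red cells and muscle, fell from 1074, 1479.5 and 1158 to 403, 517 and 543 at 1 week (2.54-fold lower, adjusted p = 0.00469). Slc16a7, the higher-affinity form MCT2, rose from 90.4, 70.7 and 45.2 to 193, 185 and 221 at 2 weeks (3.01-fold, adjusted p = 0.00904). Neither overlapped intact bone at those times. The call of Slc16a7 was lost without the adult or older arrays and with the actin covariate (log2 change 0.58, adjusted p = 0.48). Slc16a3, MCT4, the lactate exporter of glycolytic cells, was not called, at -0.05 on the log2 scale at 3 days and -0.63 at 1 week. Slc27a1, a fatty acid carrier of the plasma membrane, rose 1.4-fold at 3 days (adjusted p = 0.0192).

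Organic ions, peptides, urea, vitamins and nucleosides are carried by 24 of the genes, and 2 rose and 9 fell at some time. Beside Slc29a1, the organic cation carrier Slc22a2 rose 2.64-fold at 1 week, from 24.6, 37.7 and 24.1 to 84.6, 74.9 and 65 (adjusted p = 0.0152). Its relative Slc22a3 did the reverse at 3 days, from 77.9, 32.6 and 122 to 16.4, 15.9 and 16.2. All 3 of those arrays were below the floor, so the fall was at least 3.38-fold (adjusted p = 0.0131). It was not called without the young or older arrays or with the actin covariate. Slc15a2, a peptide carrier, fell 3.35-fold at 3 days, from 115, 190.1 and 123 to 34.4, 46.7 and 44.9 (adjusted p = 0.000303), and was at 154, 105 and 141 at 6 weeks. The urea carrier Slc14a1, which also carries a blood group of red cells, fell 2.16-fold at 3 days (adjusted p = 0.00694), and Slc14a2, the kidney urea carrier, 1.63-fold at 1 week (adjusted p = 0.0137).

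Slc22a7, an organic anion carrier, fell 2.6-fold at 2 weeks (adjusted p = 0.00688), and Slc22a25 of the same family fell at 2 and 4 weeks. The first call, and those of Slc22a25 and Slc23a3 at 4 weeks, were lost without the adult or older arrays. Slc22a5, which takes up carnitine, was called lower at 3 days, 4 weeks and 6 weeks and lay 1.76-fold lower at 6 weeks, from 342, 289 and 330.1 to 193, 225 and 138 (adjusted p = 0.00852). Slc23a3, an orphan of the ascorbate carrier family, was lower through 4 weeks (2.26-fold at that time, adjusted p = 0.0153). Slc10a2, the bile acid carrier of the ileum, was just inside the threshold at 3 days (2.32-fold lower, adjusted p = 0.0496). Slc28a2 and Slc29a2 (nucleosides), Slc15a4 (peptides and histidine), Slc13a2 (dicarboxylates) and Slc19a1 (folate) were not called by their brightest probe sets. In the remaining groups, family 35, known for nucleotide sugar carriers, had 2 of 3 members higher, the exchanger Slc35b1 (above) and the dim Slc35f6, which rose from signals below the floor on all intact arrays to 40.2, 59.3 and 61.8 at 3 days (at least 2.64-fold, adjusted p = 0.0358). The phosphate carriers Slc20a2 and Slc34a1 were not called by their brightest probe sets. Of 5 probe sets of Slc34a1, dimmer ones were called in opposite directions at 1 to 6 weeks. Slc52a3, a riboflavin carrier, fell 2.32-fold at 2 weeks (adjusted p = 0.00598), and Slc44a4, a choline-related carrier, was not called.

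The comparison of 4 and 6 weeks with 3 days and 1 week asked which carriers moved during healing, and its estimates do not use the intact arrays, which enter only the spread. limma called 19 carriers (16.1%), 10 higher and 9 lower late in healing. Over all genes 22.8% were called, 11.4% higher and 11.4% lower. Among the 10 higher late, Slc22a3 was at least 3.16-fold higher (adjusted p = 0.00559), Slc18a2 2.86-fold (adjusted p = 0.00873), Slc12a3 at least 2.67-fold (adjusted p = 0.00275) and Slc15a2 2.63-fold (adjusted p = 0.00032). Slc6a18 (at least 2.59-fold), Slc16a6 (1.99-fold), Slc22a7, Slc6a4, Slc25a4 and Slc6a20a made up the rest. Among the 9 lower late, Slc6a6 fell the most (3.68-fold, adjusted p = 0.000151), followed by Slc22a2 (2.43-fold), Slc25a1 (1.89-fold), Slc2a1 (1.73-fold, adjusted p = 0.0379) and Slc12a2 (1.71-fold, adjusted p = 0.000261). Slc7a5, Slc35b1, Slc25a5 and Slc22a5 had log2 changes of -0.68 to -0.36. Without the adult arrays 6 carriers were called, and without the older arrays 8. Slc2a1 lost its call when any 1 age was left out, and Slc12a2 by its probe set of widest range.

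**Figure D3:**
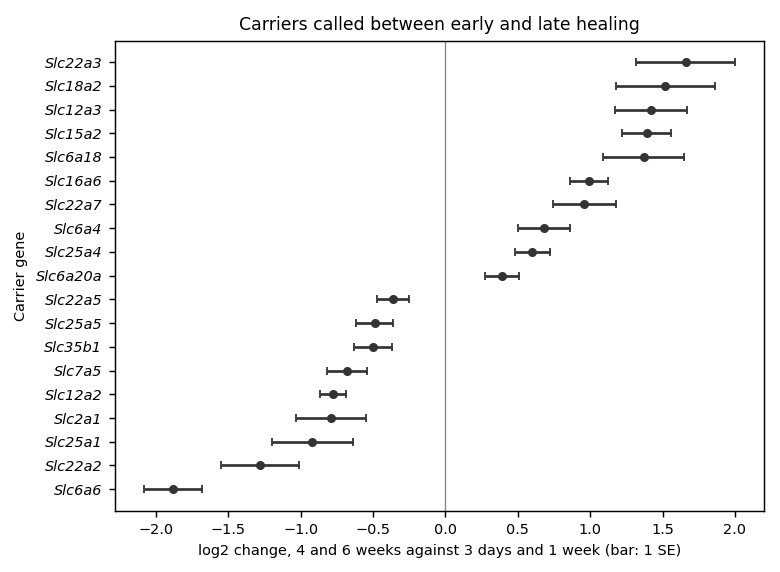
Log2 change between 4 and 6 weeks and 3 days and 1 week (horizontal axis; point, estimate; bar, 1 standard error) for the 19 carriers called in that comparison (vertical axis), over 3 ages. Slc22a3 stands highest at 1.66 and Slc6a6 lowest at -1.88.

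**Figure D4:**
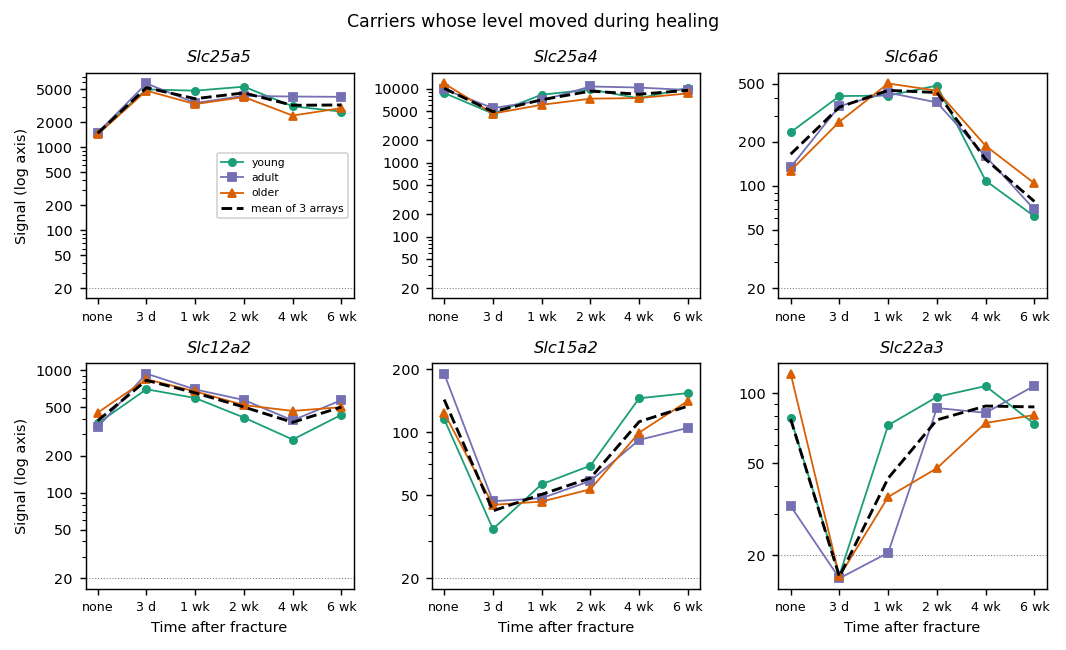
Signal (vertical axis, log scale) of 6 carriers whose level moved during healing, by time (horizontal axis), with 1 line per age (1 array per point), a dashed mean of 3 arrays and a dotted floor of 20. Slc25a5 and Slc25a4 move apart at 3 days, and Slc6a6 crosses its intact level after 2 weeks. Slc22a3 dips at 3 days and returns, while Slc15a2 stays low through 2 weeks before it returns.

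The age comparisons asked whether carriers differed among young, adult and older rats. Over all 6 times limma called 1 carrier between older and young rats, against 0.549% of all genes, and 1 between adult and young rats, against 0.0845%. Both calls were of Slc16a6. Its signal was lower in older than in young rats on all 6 pairs of arrays (intact 662 and 573.5, 3 days 153 and 72.8, 6 weeks 330.3 and 142), a log2 difference of -0.72 ± 0.13 (adjusted p = 0.0456). In adult rats the difference from young was -0.96 ± 0.13 (adjusted p = 0.0322). The adult signal was the lowest of the 3 ages at each of the 6 times. The older call is close to the threshold: leaving out any 1 of the 5 fractured times gave 0 calls, with adjusted p of 0.11 to 0.19. No carrier passed limma's F test over the 3 ages at an adjusted p below 0.05, and 12 had an unadjusted p below 0.05 (10.2%, against 12.8% of genes). The next smallest p-values for older against young were those of Slc28a2 (nucleosides), Slc12a2 and Slc27a2 (fatty acids) on the higher side and Slc15a1 (peptides) and Slc6a18 on the lower side, with adjusted p of 0.12 to 0.23. For adult against young they were Slc12a2, Slc6a17 and Slc3a1 (cystine) on the higher side and Slc25a20 and Slc25a17 on the lower side, and none was called.

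The response to fracture was compared between ages by the interaction, the older-young difference after fracture less that in intact bone. It rests on 1 intact array per age. Those arrays were fitted exactly, so the standard errors and p-values of the interaction hold no spread between intact arrays. At 4 and 6 weeks limma called 3 carriers, against 2.91% of all genes. For Slc2a1 the young signals were 236 intact, 328 at 4 weeks and 270.1 at 6 weeks, while the older ones were 278, 749 and 752. The interaction was 1.10 ± 0.14 on the log2 scale (adjusted p = 0.0301), and the adult signals, 672 and 573 late, lay near the older ones. With median centring its adjusted p was 0.051, and by the dimmer probe set of the gene it was 0.57 (adjusted p = 0.86), so the call was lost under both. For Slc12a7 the young signals were 525, 750.0 and 447 and the older ones 293.5, 951 and 638, with an interaction of 1.27 ± 0.12 (adjusted p = 0.0106). In intact bone the young signal was the highest of the 3 ages and at 6 weeks the lowest. The third call, the bile acid carrier Slc10a1, was at -0.13 ± 0.01 (adjusted p = 0.00131). Its signals were below the floor on all arrays but the older intact one, at 21.9, so the value is set by that 1 signal, and it was 0 with a floor of 100.

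At 1 and 2 weeks the interaction was called in 1 carrier, against 2.2% of all genes, and this was again Slc10a1. Among late interactions that were not called, Slc37a1 had one of -2.96 ± 0.47 (adjusted p = 0.0528, and 0.033 with median centring), Slc6a6 one of 1.64 ± 0.29 (adjusted p = 0.0629) and Slc11a2 one of -0.97 ± 0.28 (adjusted p = 0.165). The return of Slc37a1 at 4 and 6 weeks was seen in young rats (127 and 184.5) and not in adult (29 and 13.9) or older ones (24.7 and 18.5). At 1 and 2 weeks the smallest p-values among carriers not called were those of Slc20a2, Slc12a7, Slc6a13, Slc25a26 and Slc25a4. That of Slc20a2, at 1.94 ± 0.30 (adjusted p = 0.0577), turns on the older intact array, at 118 against 455 in the young and 357 in the adult one.

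**Figure D5:**
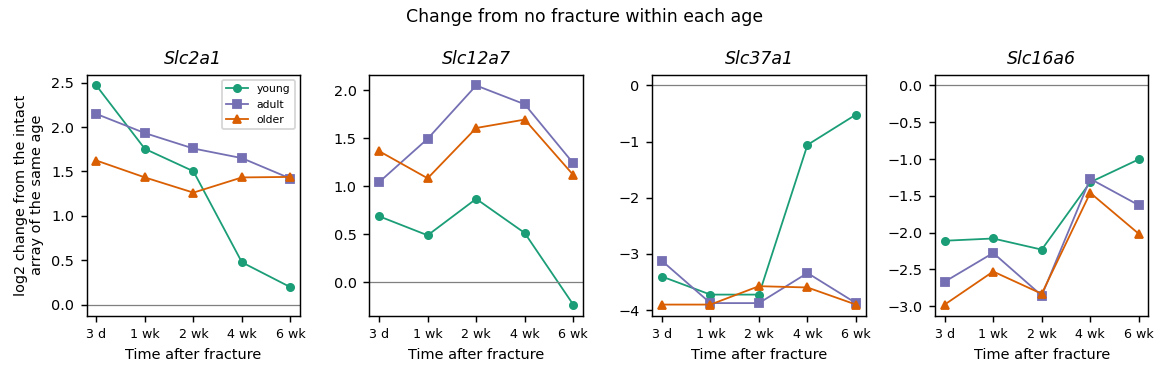
Log2 change of the signal, floored at 20, from the intact array of the same age (vertical axis) at each time after fracture (horizontal axis), for 4 carriers, with 1 line per age and 1 array per point. The young line of Slc2a1 comes back to near 0 at 6 weeks while the adult and older lines stay above 1, and in Slc37a1 the young line alone returns.

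The 54 carriers called at no time, by the probe set that represents each gene, were spread over most groups. Of the 20 neurotransmitter carriers they were Slc6a3, Slc6a7, Slc17a1, Slc17a7 and Slc18a1. Among amino acid and sugar carriers they were Slc1a1, Slc1a2, Slc1a6, Slc3a1, Slc3a2, Slc2a2, Slc2a3, Slc2a5, Slc5a1, Slc5a2, Slc5a3 and Slc5a5. The ion carriers were Slc4a4, Slc4a7, Slc8a1, Slc8a2, Slc9a2, Slc9a3, Slc9a4, Slc12a1, Slc12a5, Slc24a2 and Slc26a2. Members of family 25 were Slc25a3, Slc25a10, Slc25a14, Slc25a23 and Slc25a30, and those for monocarboxylates and fatty acids Slc16a3, Slc16a8, Slc16a12 and Slc27a2. The organic ion and nutrient carriers were Slc10a1, Slc13a1, Slc13a2, Slc13a3, Slc15a1, Slc15a4, Slc19a1, Slc22a6, Slc22a13, Slc22a18, Slc28a1, Slc28a2 and Slc29a2. Slc20a2, Slc34a1, Slc35a1 and Slc44a4 complete the 54. The widest departure among these probe sets was in the iodide carrier Slc5a5, at -1.32 ± 0.75 at 1 week (adjusted p = 0.191). Dimmer probe sets of Slc1a1, Slc2a5, Slc5a1, Slc6a3, Slc19a1, Slc25a10 and Slc34a1 were called at some time. One of Slc34a1 was at -2.37 at 3 days (adjusted p = 0.00031). A p that misses the threshold does not show that a level stayed the same.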

How the data were processed

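RNA of 18 pooled samples, 1 per age and time, was measured on Affymetrix Rat Genome U34 arrays (the A chip). The authors computed the signal intensity of each probe set with Microarray Suite 5.0 and scaled every array to 500, and these intensity values were deposited. Each value is therefore a share of its array's signal. Of 8799 probe sets 59 controls were left out. Gene symbols came from the platform annotation (7006 probe sets with 1 symbol, 308 with several, 1426 with none).

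Signals below 20 were set to 20, and log2 was taken. limma 3.58.1 (R 4.3.3) was fitted to all 8740 probe sets with time and age as additive factors (10 residual degrees of freedom), with empirical Bayes and a trend. Age nested in phase gave the interactions (4 residual degrees of freedom). Adjusted p is Benjamini-Hochberg over the 8740 probe sets, and calls are at 0.05. Group values are mean signal ± SD, and log2 values are given ± SE. The 3 ages, or 6 times, served as replicates in the additive fit, so its p-values measure only the spread between these samples. In the nested fit each intact array was fitted exactly. The SE and p-values of the interactions therefore hold no spread between intact arrays. Fitting was tested on simulated data.

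The carriers and all lists were chosen with earlier results of these data known. Named carriers were the 6 highest and 6 lowest called changes of the same sign at all 3 ages per comparison over time, the 3 lowest p each way for age, those called at all 5 times, the 5 smallest F test p-values and that of highest mean log2 signal in each family with 2 or more genes. Symbols beyond these are named to account for all members. The alternatives tried were a floor of 100, median centring, quantile normalization, a filter at a mean signal of 200, the actin ratio as a covariate, only the arrays compared, the methods' t-test, another probe set per gene and leaving out each age or time. A fold against a group with arrays below 20 is a lower bound. The number of arrays limits the precision. 0 columns were not used. Coordinates are RefSeq's on GRCr8, and the probes' own coordinates were not used here.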

Additional observations from a re-analysis of the deposited data

Results flagged for a closer look

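The older-young difference at 4 and 6 weeks departed from that in intact bone in 3 carriers by limma's interaction test, each resting on 1 intact array per age: Slc2a1 by 1.10, Slc12a7 by 1.27 and Slc10a1 by -0.13 on the log2 scale. No spread between intact arrays enters that test. For Slc2a1 the signals late in healing were 749 and 752 in older rats, against 328 and 270.1 in young rats. Its call was lost with median centring and by the dimmer probe set of the gene. At 1 and 2 weeks the same test called Slc10a1 alone, also at -0.13, and its only signal above the floor of 20 was the older intact array (21.9). Slc2a5, the fructose carrier GLUT5, was higher than the intact array at all 5 times in young rats (mean log2 change 0.78) and lower at all 5 in older rats (-0.44). This difference of -1.22 was not tested, and the intact signals it is measured from were 109 (young), 412 (adult) and 215 (older).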

How the results depend on the processing

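A floor of 100, a filter at a mean signal of 200, another probe set per gene, quantile normalization and median centring kept the counts of called carriers at each time and between early and late healing within 1.5 times. They were also kept without the young arrays (36, 39, 40, 32, 27 and 19). The filter leaves only 58 of the 118 carriers, so its share called was larger. It was 36 of 58 at 3 days and 34 of 58 at 1 week, against 52 and 50 of 118. With the actin ratio as a covariate limma called 13, 12, 10 and 1 carriers at 3 days to 4 weeks, 22 at 6 weeks (within 1.5 times), 9 late against early and 0 for older against young. With only the arrays compared it called 11, 5, 0, 0 and 0 at the 5 times (45, 31 and 19 at 2, 4 and 6 weeks with an unadjusted p below 0.05). The methods' t-test gave 15, 19, 16, 4 and 4 carriers at p below 0.005, a threshold the methods state for comparing single arrays and not for t-tests, and 19, 25, 15, 1 and 0 after Benjamini-Hochberg adjustment (25 unadjusted at 6 weeks). Leaving out 1 age gave 18 to 36 calls at 3 days, 13 to 39 at 1 week, 12 to 40 at 2 weeks, 0 to 32 at 4 weeks, 0 to 27 at 6 weeks and 6 to 19 late against early. The 0 at 4 weeks came without adult rats (29 unadjusted), and those at 6 weeks without adult (21) or older rats (21). For older against young, leaving out 1 time gave 0 to 1 calls (8 to 17 unadjusted). limma called 0 there with quantile normalization (12 unadjusted), median centring (14), a floor of 100 (9) and the actin covariate (13). The late interaction was called in 7 carriers with the filter at 200. Over 96 results on named carriers and 933 alternatives, 660 stayed on their side of the threshold, 270 lost the call, 3 gained it and 0 changed direction. Age was a block in every comparison over time, and the methods' t-test had none. The shares of all genes called under these alternatives are not given here, and the cause of these shifts was not tested. Arrays have no depth, and carriers near the floor have only a bound.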

Other observations

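Pumps, channels and transporters outside the Slc symbols were counted in the same way, from a list by symbol that also took in Atp12a and Atp13a1. Of 54 genes, 11 rose and 20 fell at some time, while 25% of all genes rose and 29% fell. All 5 aquaporins called among 9 fell: Aqp3, which passes water and glycerol, went from 319, 412 and 481 in intact femora to 85.3, 66.1 and 68.5 at 1 week (5.47-fold lower, adjusted p = 0.000543). The calcium pump Atp2a3 of blood cells fell 12.6-fold at 3 days (adjusted p = 1.32e-05), and the muscle pump Atp2a1 6.14-fold (adjusted p = 5.57e-06). Genes of the vacuolar proton pump, which acidifies lysosomes and the space under osteoclasts, differed, and most were not called at 2 weeks. Those not called then were Atp6ap1, Atp6v0c, Atp6v1c1, Atp6v1f and Atp6v1g3. At 2 weeks Atp6v1b2 rose 3.6-fold, Atp6v1a 2.77-fold and Atp6v1d 2.19-fold (adjusted p = 0.0258, 0.0353 and 0.0341). Signals of Atp6v1b2 were 276, 194 and 178 in intact femora and 841, 586 and 901 at 2 weeks, without overlap. The subunit Atp6v0a1 fell 3.26-fold at the same time (adjusted p = 0.00077). The drug and glutathione conjugate exporter Abcc1 rose 3.29-fold at 1 week (adjusted p = 0.00047), and the prostaglandin carrier Slco2a1 2.75-fold at 3 days (adjusted p = 0.00485). These genes were chosen after their values were seen.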
